A study of Sus scrofa with 33 samples.

Results

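Genes named ZNF followed by a number carry zinc finger proteins, and 48 of them could be followed in failing pig right ventricle. They were taken by name alone: every gene whose single platform symbol begins with ZNF and a digit, each represented by whichever of its probe sets was brightest on average across the 33 arrays. The 48 genes had 70 probe sets and stood among 6765 genes with a symbol. No filter on low values was used, so all 48 were tested, and 2 of them (ZNF205 and ZNF648) had a mean under 4 on the log2 scale, near the bottom of the array's range.

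Right ventricular free wall of 11 pigs was biopsied 3 times, and total RNA from each biopsy went to 1 Affymetrix Porcine Genome Array. The first biopsy was the baseline, and the next followed 120 min of pulmonary banding, a narrowing of the pulmonary artery that loads the right ventricle until it fails. The pigs had then been randomised to a shunt arm (6 pigs), with banding and a modified Glenn shunt for 60 min before the last biopsy, or to a control arm (5 pigs), with banding alone for those 60 min. The modified Glenn shunt joins the upper caval vein to the pulmonary artery, so that its blood passes by the right ventricle. The sources used here do not give the breed, age or sex of the pigs. No pigs without banding were analysed here, so each change includes all that elapsed between biopsies.

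Most proteins of this name are built from classical C2H2 zinc fingers, short loops in which 2 cysteines and 2 histidines hold a zinc ion and the tip of the loop reads a few bases of DNA. In many of them a KRAB domain at the front recruits TRIM28 (KAP1), and through it the histone methyltransferase SETDB1 and heterochromatin protein 1, which silence the bound DNA and above all transposable elements. Others carry a SCAN domain, through which such proteins pair with each other, or no such domain, and some activate genes rather than repress them. Their messenger RNAs are as a class short-lived and of low abundance in many cell types.

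All values are log2 RMA values, so that a change of 1 is a doubling, and a probe set's level says nothing of its level relative to another probe set. The mean levels of the 48 genes ran from 3.53 to 12.08. Array medians lay between 6.10 and 6.17 and pairwise correlations of arrays between 0.956 and 0.995. Ventricular muscle genes marked every array, as the beta-myosin heavy chain gene MYH7 at 14.87 to 15.05 on each. Spiked-in controls, among them BioB and Dap, divided the pigs into 3 array sets, and no set held both arms. Shunt pigs 1 to 4 formed set A, shunt pigs 5 and 6 set B and the control pigs set C. Mean BioB signals were 8.33, 5.96 and 9.35, and mean Dap signals 3.38, 8.34 and 7.59. Array set and arm therefore cannot be told apart in any comparison between arms, whereas each within-pig change stays within a set.

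After 120 min of banding the zinc finger genes were mostly lower. Of the 48 genes, 20 fell (41.7%), 3 rose (6.25%) and 25 did not pass, of which 18 lay below and 7 above 0. Over all probe sets 17.4% fell and 11.6% rose, and over all 6765 genes 20.8% fell and 13.1% rose (limma, Benjamini-Hochberg over 23999 probe sets, adjusted p under 0.05). The median change of the 48 genes was -0.12, against -0.02 for the other genes, and 79.2% of them lay below 0, against 54.7%. These shares describe the list beside its background, and the list as a whole was not tested. In bulk tissue, fewer cells of a type and less RNA per cell cannot be told apart.

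**Figure D1:**
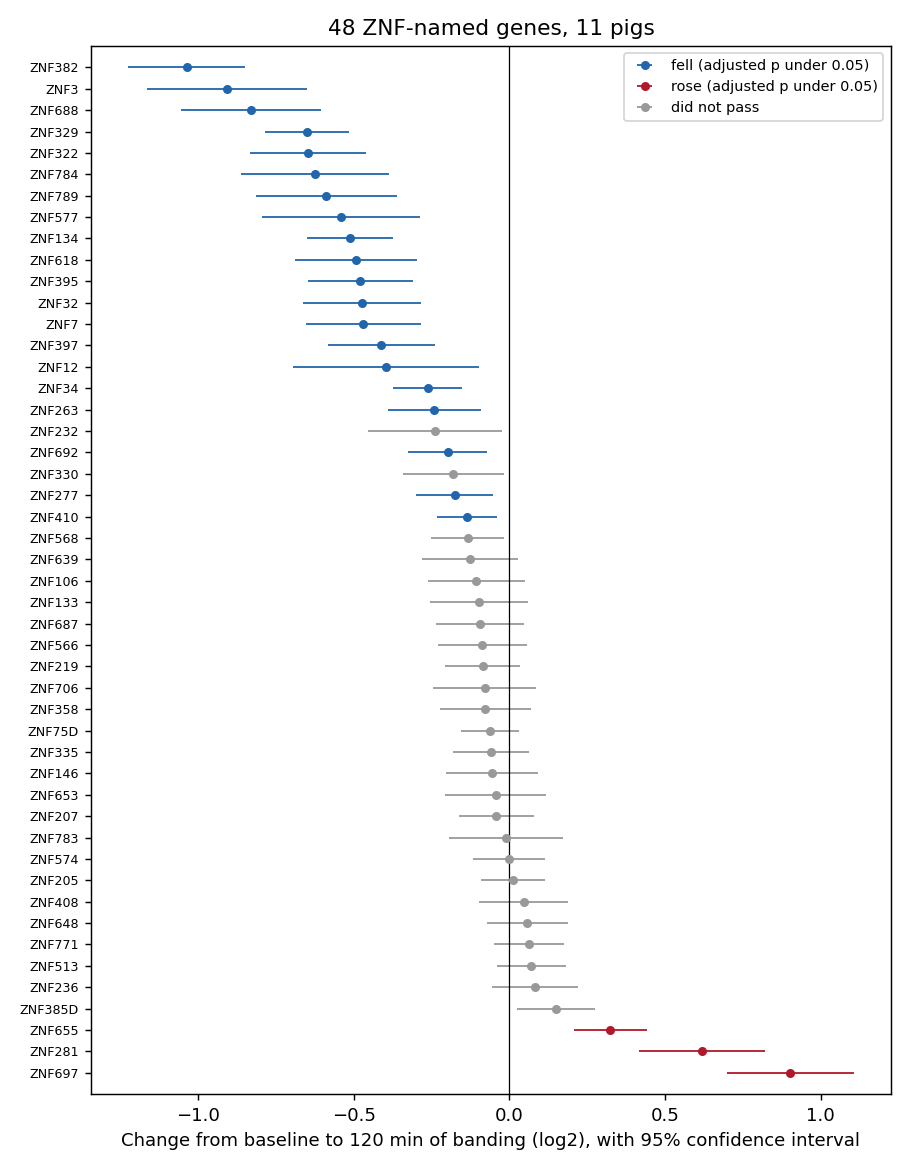
Change of each of the 48 ZNF-named genes from baseline to 120 min of banding (x axis, log2), with its 95% confidence interval, over 11 pigs. Blue points fell, red points rose and grey points did not pass an adjusted p of 0.05; 20 genes fell, down to -1.04 for ZNF382, and 3 rose, up to 0.90 for ZNF697.

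The genes with a KRAB domain held the 3 largest falls. ZNF382, a KRAB repressor known as a silencer of growth-promoting genes, read 6.52 at the lowest, 6.74 at the median and 7.15 at the highest of the 11 baseline arrays. At 120 min the lowest, median and highest values were 5.21, 5.83 and 6.35. All 11 arrays at 120 min thus lay below all 11 baseline arrays. The fitted change was -1.04 ± 0.09 (SE), or 2.05-fold lower (limma, adjusted p = 1.84e-08), and single pigs ranged from -1.69 to -0.16.

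ZNF3, also a KRAB protein, had lowest, median and highest baseline values of 6.87, 7.31 and 7.77. At 120 min these were 5.77, 6.39 and 6.95. The ranges overlapped, with 3 arrays at 120 min above the lowest baseline array, yet ZNF3 was lower in 11 of 11 pigs. Its change was -0.91 ± 0.12, or 1.87-fold lower (limma, adjusted p = 6.29e-06). A much dimmer probe set of ZNF3, with a mean of 3.81, changed by -0.03 ± 0.06 (limma, adjusted p = 0.774) and did not pass, and the mean of both probe sets changed by -0.47 (limma, adjusted p = 0.000108).

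ZNF688, a KRAB protein with few fingers, went from 5.89, 6.26 and 6.75 (lowest, median and highest baseline array) to 4.78, 5.43 and 6.04 at 120 min. A single array at 120 min stood above the lowest baseline array. The gene was lower in 11 of 11 pigs, by -0.83 ± 0.11 (limma, adjusted p = 3.40e-06). The change in control pig 1 was -1.49, beyond the -0.58 to -0.30 of the other control pigs.

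Of the 16 genes whose human protein has a KRAB domain, 9 fell (56.25%) and 1 rose at 120 min, with a median change of -0.25. Of the 32 without one, 11 fell (34.4%) and 2 rose, with a median of -0.09. Of all genes 20.8% fell and 13.1% rose at 120 min. Over the shunt arm's whole course 6 of the 16 KRAB genes fell (37.5%) and 3 rose, and 13 of the 32 others fell (40.6%) and 2 rose. In the control arm 4 of the 16 (25%) and 5 of the 32 (15.6%) fell, and 0 and 2 rose. Of all genes 23.6% fell and 16.7% rose over the shunt arm's whole course, and 5.59% and 4.39% over the control arm's. The classes were assigned from general knowledge of the human proteins after the values had been seen, and the difference between them was not tested. The other KRAB genes that fell were ZNF789 (-0.59), ZNF577 (-0.54), ZNF7 (-0.47), ZNF12 (-0.40), ZNF34 (-0.26) and ZNF263 (-0.24), the last of which also has a SCAN domain. ZNF7 and ZNF34 were lower in 11 of 11 pigs, ZNF789 and ZNF577 in 10, ZNF263 in 8 and ZNF12 in 7. With the mean of its probe sets ZNF34 changed by -0.14 (limma, adjusted p = 0.0337).

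Among the genes with a SCAN domain, ZNF397, which has been described at centromeres, fell by 0.41 ± 0.08 (limma, adjusted p = 0.000521) and was lower in 11 of 11 pigs. ZNF263, which binds a well-defined motif in many promoters, is counted above. ZNF232 changed by -0.24 ± 0.10 (limma, adjusted p = 0.0886) and ZNF75D by -0.06 ± 0.05 (limma, adjusted p = 0.331), and neither passed.

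The largest fall outside the KRAB class was that of ZNF329. Its lowest, median and highest arrays read 6.44, 6.68 and 6.97 at baseline and 5.80, 6.02 and 6.31 at 120 min. As for ZNF382, all arrays at 120 min lay below all at baseline, and these were the only 2 of the 48 genes of which this held. The share of all genes with such a gap is not given here, so the count has no background beside it. The change was -0.65 ± 0.06 (limma, adjusted p = 8.68e-08), with single pigs between -1.05 and -0.45.

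ZNF322, whose human protein has been placed in MAP kinase signalling, read 6.88, 7.44 and 7.74 at baseline and 6.15, 6.74 and 7.12 at 120 min. The ranges overlapped in 3 arrays at 120 min, and the gene was lower in 11 of 11 pigs, by -0.65 ± 0.09 (limma, adjusted p = 7.61e-06). ZNF784 (-0.62 ± 0.11) and ZNF134 (-0.51 ± 0.07) were also lower in every pig, with limma adjusted p of 0.000196 and 3.29e-06. ZNF410, an activator best known for driving the chromatin remodeller gene CHD4, had the smallest fall, 0.14 ± 0.05, and was lower in 11 of 11 pigs all the same (limma, adjusted p = 0.0305).

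The remaining genes that fell were ZNF618 (-0.49), a partner of the methylcytosine reader UHRF2, ZNF395 (-0.48), a DNA-binding protein linked to hypoxia, ZNF32 (-0.47), ZNF692 (-0.20) and ZNF277 (-0.17). ZNF692 is a repressor of the gluconeogenic gene PCK1. Each was lower in 10 of 11 pigs, except ZNF692, which was lower in 8. Of the 23 genes that fell or rose, 19 passed whichever pig was left out. ZNF12 lost its call without shunt pig 2, 3, 4 or 6 or control pig 1 or 2, with changes of -0.46 to -0.22 over all 11 such fits. ZNF277 lost it without shunt pig 3 or control pig 2, 3 or 5 (-0.20 to -0.15). ZNF410 lost it without shunt pig 1, 3 or 5 or control pig 2 (-0.14 to -0.12), and ZNF692 without shunt pig 1, 3 or 4 (-0.22 to -0.16). ZNF12 was called in only 10 of the 25 alternative settings: its call was also lost without the pig as a block, with the pig as a random block, with an intensity trend and robust eBayes, with array weights and with only the arrays compared. ZNF277 (15 of 25) also lost its call without the block and with the random block, ZNF410 (16 of 25) without the block, and ZNF12, ZNF277, ZNF410 and ZNF263 without shunt pigs 5 and 6 together.

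The 3 genes that rose did so in 11 of 11 pigs. ZNF697, a many-fingered protein studied in skeletal muscle, had lowest, median and highest arrays of 7.40, 7.83 and 8.29 at baseline and of 7.99, 8.65 and 9.50 at 120 min. The ranges overlapped, with 2 arrays at 120 min below the highest baseline array. The rise was 0.90 ± 0.10, or 1.87-fold (limma, adjusted p = 3.43e-07).

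ZNF281, a factor of stem cells and of the epithelial to mesenchymal transition, read 7.63, 7.95 and 8.30 at baseline and 8.15, 8.60 and 9.01 at 120 min. A single array at 120 min lay below the highest baseline array. ZNF281 rose by 0.62 ± 0.10, or 1.54-fold (limma, adjusted p = 3.53e-05). It had 6 probe sets on the array, and all 6 rose, by 0.40 to 0.73.

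ZNF655, a KRAB protein that binds the signalling protein VAV1, rose by 0.32 ± 0.06, or 1.25-fold (limma, adjusted p = 0.000107). Its arrays ran from 6.40 to 6.99 at baseline and from 6.72 to 7.14 at 120 min, so the ranges overlapped widely.

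**Figure D2:**
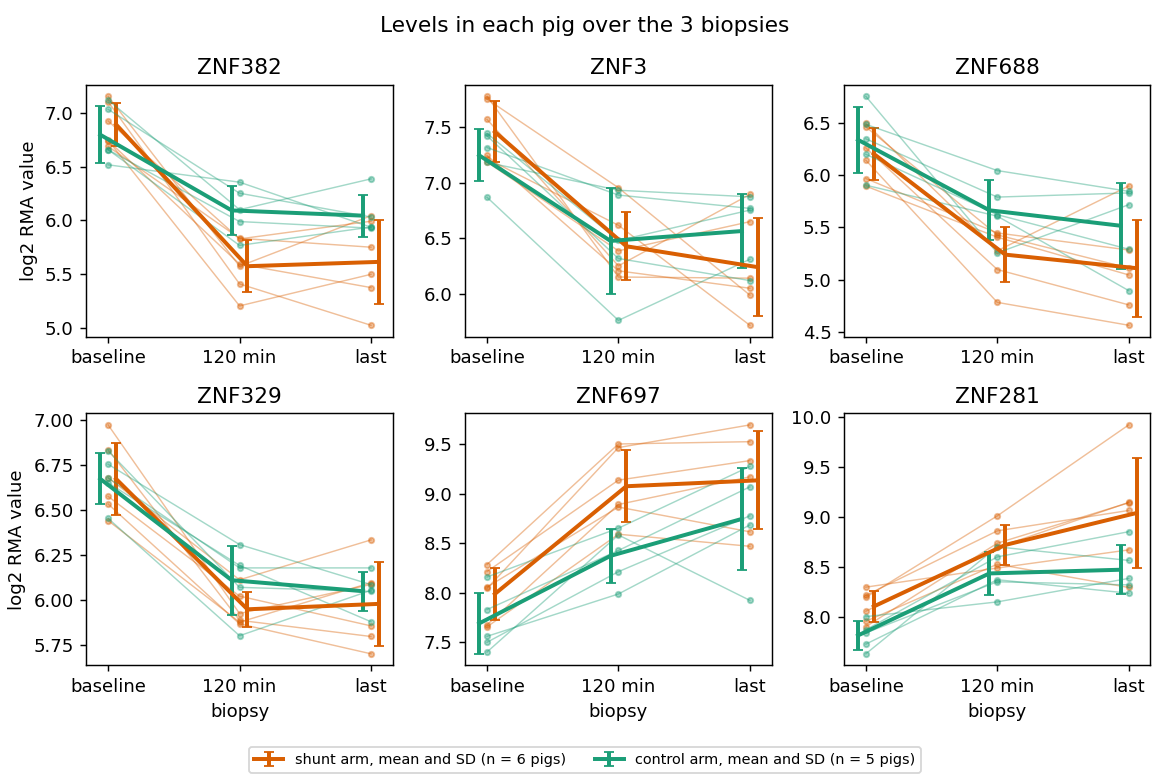
Level (y axis, log2 RMA value) of ZNF382, ZNF3, ZNF688, ZNF329, ZNF697 and ZNF281 at the 3 biopsies (x axis), with a thin line for each pig and thick lines for the mean of each arm with SD (6 shunt pigs, 5 control pigs). The first 4 genes were lower at 120 min in 11 of 11 pigs and the last 2 higher, and no gene passed the test of a further change from 120 min to the last biopsy.

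The 25 genes that did not pass had changes between -0.24 (ZNF232) and 0.15 (ZNF385D). Among them were ZNF106, an RNA-binding protein needed for healthy neuromuscular function, at -0.11 ± 0.07, ZNF219, a partner of SOX9 in cartilage, at -0.09 ± 0.06, ZNF706 at -0.08 ± 0.08 and ZNF207, a spindle assembly protein also called BuGZ, at -0.04 ± 0.06. Standard errors of the 48 genes ran from 0.05 to 0.14. A p that misses the threshold does not show that a gene kept its level.

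Where a gene had several probe sets, their changes mostly had the same sign, but not always a like size. The sign was shared by all probe sets in 11 of the 13 such genes, and no gene had probe sets called in opposite directions. The share of all genes with a shared sign is not given here. Sizes differed for ZNF3 (-0.91 and -0.03) and ZNF34 (-0.26 and -0.01). Among the 22 probe sets that were not used, 5 fell and 6 rose, 5 of the latter being those of ZNF281 and the sixth that of ZNF385D (0.26). The probe sets of ZNF566, a KRAB gene, differed: the brighter changed by -0.09 ± 0.07 (limma, adjusted p = 0.377), while the dimmer fell by 0.33 ± 0.07 (limma, adjusted p = 0.000471). The dimmer probe set of ZNF618 changed by -0.10 ± 0.07 (limma, adjusted p = 0.279). For ZNF395, 3 probe sets fell (-0.48, -0.29 and -0.48), and the dimmest changed by 0.11 ± 0.06 (limma, adjusted p = 0.159).

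The shares were then read at like mean level. With the 48 genes cut into 4 groups of 12 by mean level, 3 of 12 fell at 3.53 to 5.64, 8 of 12 (66.7%) at 5.64 to 6.72, 5 of 12 (41.7%) at 6.72 to 7.81 and 4 of 12 (33.3%) at 7.81 to 12.08. Other genes of the same levels fell in 6.64%, 15.2%, 25.3% and 28.3% of cases. The zinc finger share thus stood above that of other genes in the dimmer groups. In the brightest group, with 12 genes, 33.3% lay near the 28.3% of other genes. In the same order 0, 0, 1 and 2 of 12 rose, where 121 of 1204, 134 of 1012, 184 of 1347 and 421 of 2752 other genes did so. Median changes were -0.09, -0.22, -0.09 and -0.10 in the 4 groups, against 0.06, 0.02, -0.05 and -0.08 for the other genes.

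**Figure D3:**
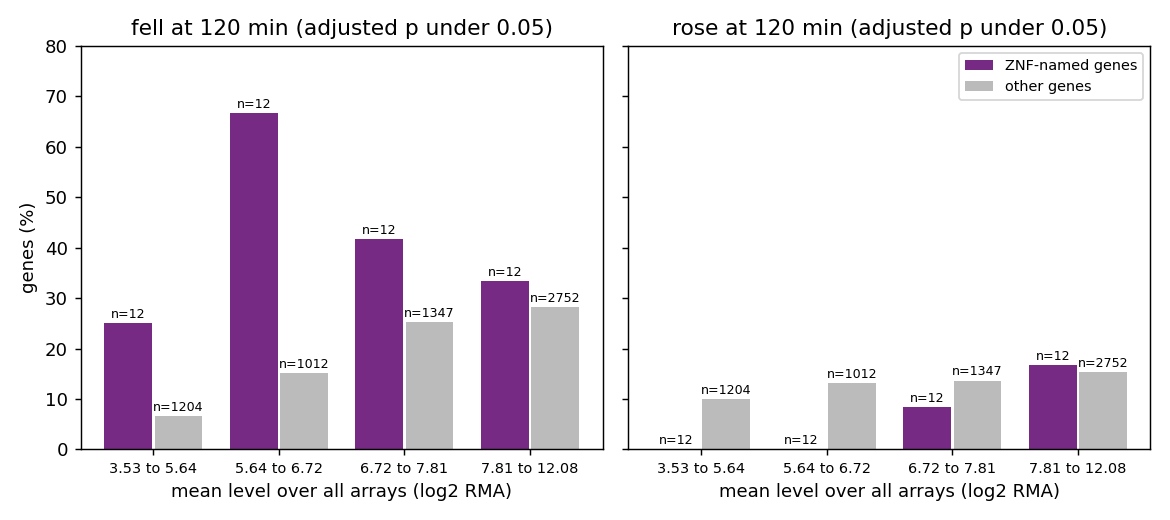
Share of genes (y axis, %) that fell (left) or rose (right) from baseline to 120 min of banding, for ZNF-named genes (purple) and other genes (grey) in 4 bands of mean level over all arrays (x axis, log2 RMA); the number of genes stands over each bar. Below the brightest band a larger share of the ZNF-named genes fell, as 66.7% against 15.2% between 5.64 and 6.72. In the brightest band the shares lay near each other, at 33.3% and 28.3%.

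Taken pig by pig, the mean change over the 48 genes at 120 min was below 0 and below the mean of the other genes in 11 of 11 pigs. It ran from -0.36 in shunt pig 3 to -0.06 in control pig 5, with a mean of -0.19 ± 0.10 (SD, n = 11). The other genes averaged between -0.03 and 0.04 in the same pigs. In each pig 27 to 38 of the 48 genes were lower (56.25% to 79.2%), against 46.2% to 62.6% of the other genes. The gap was small in some pigs, as in control pig 3 (56.25% against 49.8%) and control pig 5 (60.4% against 53.1%). Shunt pigs averaged -0.24 ± 0.09 (SD, n = 6) and control pigs -0.14 ± 0.08 (SD, n = 5), and by array set it was -0.26 in set A, -0.19 in set B and -0.14 in set C. The arms' ranges overlapped, with -0.36 to -0.11 in the shunt pigs and -0.27 to -0.06 in the control pigs.

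**Figure D4:**
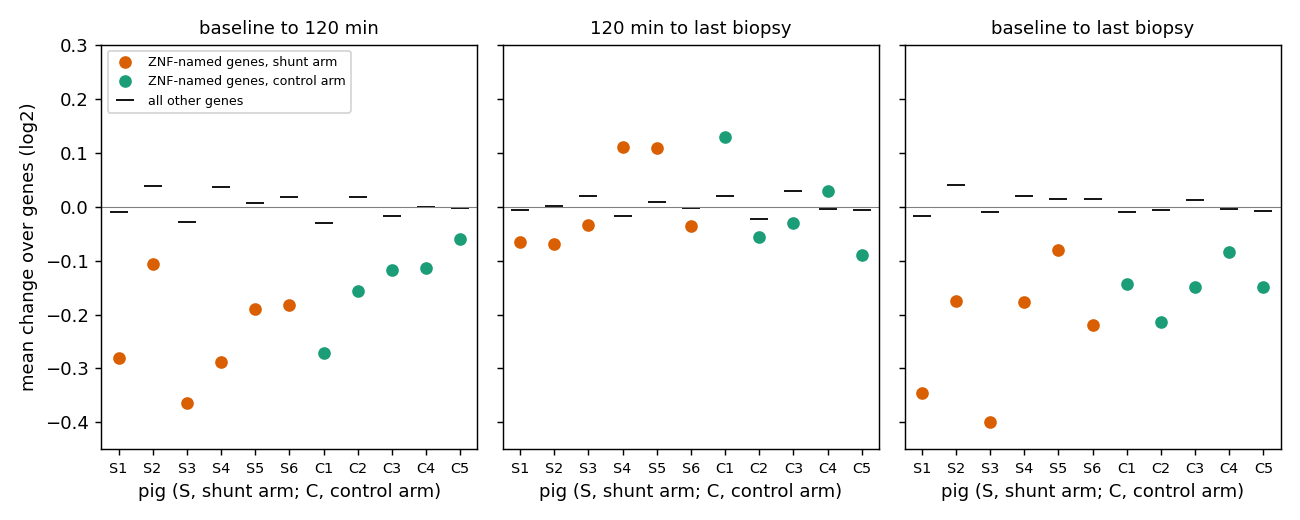
Mean change over the 48 ZNF-named genes (y axis, log2) in each pig (x axis; S1 to S6 shunt arm in orange, C1 to C5 control arm in green) from baseline to 120 min, from 120 min to the last biopsy and from baseline to the last biopsy, with a dash for the mean of all other genes in the same pig. In the left and right panels the ZNF-named genes lie below 0 and below the dash in all 11 pigs; in the middle panel they lie between -0.09 and 0.13.

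The arms were treated alike up to 120 min and consist of different pigs, so their responses can be set side by side. In the shunt arm 18 of the 48 genes fell (37.5%) and 3 rose (6.25%), where 14.3% and 9.75% of all probe sets did so. Of all genes 16.5% fell and 11.7% rose in this arm. In the control arm 7 fell (14.6%) and 2 rose (4.17%), where 3.76% and 2.97% of all probe sets and 3.58% and 3.44% of all genes did so. The 7 were ZNF134, ZNF3, ZNF322, ZNF329, ZNF382, ZNF397 and ZNF688, and all of them were among the 18 of the shunt arm (38.9% of the shunt arm's falls and 100% of the control arm's). For the other genes these shares were 18.6% and 87.2%. ZNF697 and ZNF281 rose in both. Changes had the same sign in both arms for 41 of the 48 genes (85.4%), against 77.1% of the other genes.

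In the test of the difference between the arms' responses at 120 min, limma called none of the 48 genes, nor any of the 23999 probe sets. At an unadjusted p under 0.05 there were 5 zinc finger genes (10.4%, against 6.71% of the other genes), all with the larger fall in the shunt arm. The smallest p belonged to ZNF395, with a change of -0.74 ± 0.11 in the shunt pigs and -0.16 ± 0.12 in the control pigs, a difference of -0.58 (95% interval -0.92 to -0.24; limma, adjusted p = 0.441). For ZNF382 the changes were -1.32 ± 0.12 and -0.70 ± 0.14 and the difference was -0.61 (95% interval -0.99 to -0.23; limma, adjusted p = 0.474). ZNF789 (-0.58), ZNF692 (-0.29) and ZNF618 (-0.41) followed, with limma adjusted p of 0.630, 0.677 and 0.708. With the mean of its probe sets ZNF618 differed by -0.20 (limma, adjusted p = 0.823).

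Markers of blood and other cell types were followed beside the zinc finger genes, and no difference between the arms was tested for these lists. Of 7 measured neutrophil and monocyte markers 3 rose at 120 min over all pigs, led by S100A9, a calcium-binding protein of neutrophils (1.38 ± 0.29). The mean level of the 7 went from 5.43 to 5.80 over the shunt baseline arrays to 5.73 to 6.81 at 120 min, and from 5.49 to 5.76 to 5.54 to 5.82 in the control arm. Of 4 macrophage markers 2 rose, their mean going from 7.94 to 8.51 over the shunt baseline arrays to 8.08 to 9.04 at 120 min, and from 7.63 to 8.39 to 8.11 to 8.41 in the control arm, and of 8 lymphocyte markers 2 fell. Of 12 ventricular muscle markers 1 fell, phospholamban (PLN, -0.44 ± 0.09), and their mean level lay between 13.71 and 14.05 on every array. Over the whole course 3 of the 12 fell in the shunt arm (25%, with a median change of -0.14) and 0 in the control arm. Of all genes 23.6% and 5.59% fell over these courses. Of 6 smooth muscle and pericyte markers 2 rose, with a mean level of 9.44 to 10.15 over the shunt baseline arrays and 9.87 to 10.67 at 120 min, and of 9.78 to 10.30 and 9.92 to 10.57 in the control arm. Over the shunt arm's whole course 3 of the 6 rose. The 3 erythrocyte markers did not pass (limma, adjusted p of 0.0681 to 0.136). Their mean level was 7.12 to 8.66 over the control baseline arrays and 6.43 to 7.65 at 120 min, and 6.73 to 7.93 and 6.58 to 8.41 in the shunt arm. At 120 min 2 of 5 fibroblast markers and 2 of 8 endothelial markers fell, and 1 of each rose. Of 4 atrial markers 1 fell, of 4 adipocyte markers 1 fell and 1 rose, and of 3 platelet markers 1 rose. Of 2 mesothelial markers 0 passed. Of all genes 20.8% fell and 13.1% rose at 120 min. The part of these markers in the zinc finger result was not tested.

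From 120 min to the last biopsy the zinc finger genes showed no further common shift. In the control arm, with 60 min more of banding, limma called none of the 48 genes and none of all probe sets. An unadjusted p under 0.05 was reached by 2.08% of the zinc finger genes, against 2.37% of the other genes. Only ZNF697 did so, with a change of 0.37 (95% interval 0.07 to 0.68; limma, adjusted p = 1.00). It went up in 4 of 5 control pigs, by 0.56 to 0.70, and by -0.66 in control pig 5. The median change of the 48 genes was -0.0030. The next smallest p belonged to ZNF219 (-0.16), ZNF574 (-0.14), ZNF566 (0.16) and ZNF568 (-0.13), none of which passed.

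With the shunt, limma again called none of the 48 genes and none of all probe sets over the same 60 min. At an unadjusted p under 0.05 there were 7 zinc finger genes, 3 lower and 4 higher (14.6%, against 9.75% of the other genes), and the median change was -0.0026. ZNF397 came nearest. Its shunt arrays ran from 5.53 to 6.35 with a median of 5.71 at 120 min and from 4.71 to 5.61 with a median of 5.44 at the last biopsy, so the ranges overlapped. The change was -0.51 ± 0.11 (limma, adjusted p = 0.190), with lower values in 5 of 6 pigs. Without shunt pig 4 it was -0.63 (limma, adjusted p = 0.0427), and with array quality weights -0.55 (limma, adjusted p = 0.0182), so that the call rests on the treatment of single arrays.

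The other shunt arm genes with the smallest p were ZNF207 (0.24), ZNF783, a KRAB gene (0.35), ZNF618 (-0.36) and ZNF566 (0.26), with limma adjusted p of 0.390 to 0.417. With the mean of the probe sets ZNF618 changed by -0.20 and ZNF566 by 0.17. In the test of the difference between arms over these 60 min none of the 48 genes or of all probe sets was called. An unadjusted p under 0.05 was reached by 2 zinc finger genes (4.17%, against 2.32% of the other genes). These were ZNF397 (-0.36, 95% interval -0.70 to -0.01) and ZNF574 (0.23, 95% interval 0.00 to 0.46), both with a limma adjusted p of 1.00. ZNF207 (0.23), ZNF263 (0.26) and ZNF697 (-0.31) were next and also did not pass. Within the intervals given, an effect of the shunt on these genes was not detectable with 6 and 5 pigs.

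By the last biopsy more zinc finger genes had fallen than risen in either arm, and the genes called were not all those called at 120 min. This comparison shares its baseline arrays with the one at 120 min, so the values below stand beside the earlier ones and add no independent evidence. In the control arm 9 of the 48 genes fell (18.8%) and 2 rose (4.17%), where 5.29% and 3.5% of all probe sets did so. Of all genes 5.59% fell and 4.39% rose in this arm. In the shunt arm 19 fell (39.6%) and 5 rose (10.4%), where 19.2% and 13.3% of all probe sets did so. Of all genes 23.6% fell and 16.7% rose in this arm. The mean over the 48 genes was below 0 in 11 of 11 pigs, with an average of -0.23 ± 0.12 for shunt pigs (SD, n = 6) and -0.15 ± 0.05 for control pigs (SD, n = 5). The neutrophil and monocyte level stood at 5.89 to 7.34 on the last shunt arrays and 5.76 to 6.09 on the last control arrays, and its part in the shares was not tested.

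Some genes that fell at 120 min over all pigs were not called at the last biopsy in either arm. The test in each arm rests on fewer pigs, so a lost call does not show that a level returned. ZNF7 changed by -0.31 ± 0.12 in the shunt arm (limma, adjusted p = 0.0532) and -0.34 ± 0.13 in the control arm (adjusted p = 0.119), and ZNF577 by -0.41 ± 0.17 (limma, adjusted p = 0.0617) and -0.43 ± 0.18 (adjusted p = 0.160). ZNF263 (-0.19 and -0.23) and ZNF410 (-0.10 and -0.14) did not pass either. In the control arm alone ZNF7, ZNF577, ZNF263 and ZNF410 did not pass at 120 min (limma, adjusted p of 0.103, 0.203, 0.583 and 0.437). In the shunt arm alone ZNF7, ZNF577 and ZNF263 fell at 120 min (-0.55, -0.66 and -0.34). ZNF410 did not pass there (limma, adjusted p = 0.0618). ZNF106, ZNF219 and ZNF232, which did not pass at 120 min, fell over the shunt arm's whole course.

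In the control arm the falls were those of ZNF688 (-0.82 ± 0.16), ZNF382 (-0.75 ± 0.14), ZNF3 (-0.68 ± 0.18), ZNF329 (-0.62 ± 0.10), ZNF397 (-0.56 ± 0.12), ZNF784 (-0.56 ± 0.17), ZNF322 (-0.47 ± 0.13), ZNF134 (-0.40 ± 0.10) and ZNF568 (-0.27 ± 0.08). Limma adjusted p ran from 0.000218 for ZNF329 to 0.0459 for ZNF568, a KRAB repressor known from the mouse embryo, where it silences a placental form of Igf2. The first 8 were lower in 5 of 5 pigs. ZNF697 rose by 1.05 ± 0.15 and ZNF281 by 0.66 ± 0.15. The number called in this arm ranged from 4 to 12 when single pigs were left out, and was 4 (3 lower, 1 higher) without control pig 2, 7 without control pig 3 and 7 without control pig 5. Without the pig as a block it was 5 (3 lower, 2 higher).

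ZNF382, ZNF329, ZNF688 and ZNF697 kept their calls in the control arm whichever pig was left out. Without control pig 2 the calls of ZNF134 (-0.29), ZNF397 (-0.50), ZNF281 (0.58), ZNF3 (-0.52) and ZNF322 (-0.39) were lost. ZNF3 and ZNF322 also lost theirs without control pig 3 or 5, with changes of -0.77 to -0.52 and -0.54 to -0.39 over all such fits. ZNF784 lost its call whichever control pig was left out, and without shunt pig 6 (-0.61 to -0.49). ZNF568 lost it whichever control pig was left out, and without shunt pig 3 or 6 (-0.31 to -0.24). With the mean of its probe sets ZNF3 changed by -0.32 in this arm (limma, adjusted p = 0.110).

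In the shunt arm ZNF382 was again lowest. Its 6 baseline arrays ran from 6.69 to 7.15 with a median of 6.83, and its 6 last arrays from 5.03 to 6.04 with a median of 5.63, with no overlap. The change was -1.28 ± 0.12 (limma, adjusted p = 7.61e-08). ZNF3 (-1.21 ± 0.17), ZNF688 (-1.09 ± 0.15), ZNF618 (-1.04 ± 0.13), ZNF397 (-0.92 ± 0.11), ZNF322 (-0.92 ± 0.12), ZNF784 (-0.85 ± 0.16) and ZNF789 (-0.79 ± 0.15) followed, each lower in 6 of 6 pigs. The other 11 falls lay between -0.78 (ZNF32 and ZNF395) and -0.28 (ZNF106 and ZNF219). ZNF106 lost its call without shunt pig 1, 2 or 3 (-0.35 to -0.14 over all 11 fits), ZNF12 without shunt pig 2, 3 or 6 (-0.68 to -0.47) and ZNF219 without shunt pig 1 (-0.17). With the mean of a gene's probe sets, ZNF3 changed by -0.67 and ZNF618 by -0.59, and both still passed.

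The rises in the shunt arm were those of ZNF697 (1.15 ± 0.13), ZNF281 (0.94 ± 0.13), ZNF655 (0.40 ± 0.08), ZNF783 (0.40 ± 0.12) and ZNF566 (0.27 ± 0.09). ZNF697 and ZNF281 were higher in 6 of 6 pigs, ZNF655 and ZNF566 in 5 and ZNF783 in 4. The other probe set of ZNF566 changed by -0.35 over the same course, and the mean of both changed by -0.04 (limma, adjusted p = 0.749), so no direction can be given for ZNF566. ZNF566 also lost its call without any one of shunt pigs 1, 2, 4, 5 and 6 (changes of 0.15 to 0.28), and ZNF783 without shunt pig 2 (0.27) or 6 (0.32).

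**Figure D5:**
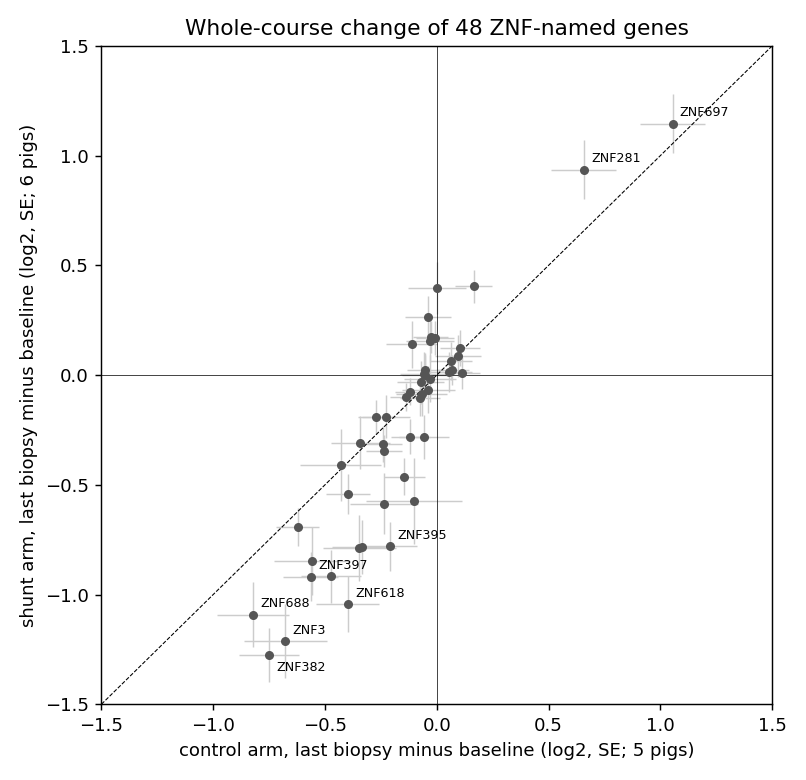
Change from baseline to the last biopsy of the 48 ZNF-named genes in the control arm (x axis, log2, 5 pigs) and the shunt arm (y axis, log2, 6 pigs), with SE bars and a dashed line of equal change. ZNF382, ZNF3 and ZNF688 lie lowest and ZNF697 highest in the shunt arm, and 40 of the 48 genes have the same sign in both arms.

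Set side by side, 30 genes were lower in both arms and 10 higher in both (83.3% of the same sign, against 78.0% of the other genes). ZNF134, ZNF3, ZNF322, ZNF329, ZNF382, ZNF397, ZNF688 and ZNF784 fell in both, which is 42.1% of the shunt arm's falls and 88.9% of the control arm's. For the other genes these shares were 21.1% and 90.0%. ZNF568, which fell in the control arm, changed by -0.19 ± 0.08 in the shunt arm (limma, adjusted p = 0.0619). In the test of the difference between arms limma called none of the 48 genes and 1 of all probe sets (0.00417%). At an unadjusted p under 0.05 there were 11 zinc finger genes, 8 of them lower and 3 higher in the shunt arm (22.9%, against 14.7% of the other genes).

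The smallest p of these belonged to ZNF395, with a difference of -0.57 (95% interval -0.91 to -0.23; limma, adjusted p = 0.167). Its shunt arrays went from 8.50 to 8.81 at baseline to 7.27 to 8.32 at the last biopsy, without overlap, and its control arrays from 8.35 to 8.58 to 7.91 to 8.38, with overlap. ZNF618 differed by -0.65 (95% interval -1.04 to -0.25; limma, adjusted p = 0.182), and with the mean of its probe sets by -0.27 (limma, adjusted p = 0.404). ZNF382 differed by -0.52 (limma, adjusted p = 0.245), ZNF692 by -0.32 and ZNF322 by -0.45. None passed. The difference in the number of genes called in the arms is thus not a tested difference between arms.

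The arms were also compared before banding, on the 11 baseline arrays. None of the 48 genes was called by limma, against 5 of all probe sets (0.0208%). An unadjusted p under 0.05 was reached by 7 zinc finger genes (14.6%, against 12.5% of the other genes). ZNF397 stood out of these, at 6.22 ± 0.31 in shunt pigs (SD, n = 6) and 6.93 ± 0.12 in control pigs (SD, n = 5). The ranges, 5.80 to 6.70 and 6.85 to 7.14, did not overlap, and the difference was -0.71 ± 0.13 (SE; limma, adjusted p = 0.0924). The difference was there before any treatment and cannot be told apart from the array sets. ZNF322 (0.37), ZNF281 (0.29), ZNF639 (0.27) and ZNF236, a glucose-responsive gene (-0.33), were next, with limma adjusted p of 0.229 to 0.300.

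Many zinc finger genes lie in clusters made by gene duplication, so the neighbours of the 48 genes were looked up in the RefSeq gene order of assembly Sscrofa11.1, where 47 were matched. A gene was counted in a run where at least 2 other zinc-finger-named genes lay among the 5 genes on either side. Of 21 genes in a run 13 fell and 1 rose, with a median change of -0.40, and of 26 others 7 fell and 2 rose, with a median of -0.09. The difference was not tested. Of all genes 20.8% fell and 13.1% rose at 120 min, and the share of falls among the 26 others lay near this. Genes in a run overlap with KRAB genes, as ZNF382, ZNF688, ZNF789, ZNF577, ZNF7, ZNF12, ZNF34 and ZNF263 are both. The groupings were not separated. Neighbours did not always move alike. ZNF789 and ZNF655, with 1 gene between them, had changes of -0.59 and 0.32, and ZNF382 and ZNF566, with 2 between them, of -1.04 and -0.09. ZNF34 and ZNF7, with 1 between them, fell by 0.26 and 0.47. Related genes in a cluster can share sequence, and whether probes of 1 gene also read its relatives was not tested.

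The partners through which KRAB proteins silence chromatin were followed as a list of 37 genes, of which 21 were measured. At 120 min 8 of the 21 fell (38.1%) and 1 rose (4.76%), where 20.8% and 13.1% of all genes did so. Their median change was -0.10. SETDB1, the methyltransferase that TRIM28 brings to its targets, fell by 0.47 ± 0.06. EHMT2 (G9a), a histone H3 lysine 9 methyltransferase, fell by 0.33 ± 0.06, and DNMT3A, a de novo DNA methyltransferase, by 0.38 ± 0.09. DNMT1, which copies DNA methylation after replication, rose by 0.67 ± 0.07. Over the whole course 6 fell (28.6%) and 2 rose (9.52%) in the shunt arm, where 23.6% and 16.7% of all genes did so. In the control arm 3 fell (14.3%) and 1 rose (4.76%), where 5.59% and 4.39% of all genes did so.

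Other zinc-binding and transcription genes gave lower shares. Of 41 genes of other zinc finger classes 11 fell (26.8%) and 2 rose at 120 min, among them ZDHHC6, a palmitoyltransferase (-0.47), ZFYVE16, an endosomal FYVE finger protein (-0.45), and ZRANB2, a splicing factor (-0.32). Of 45 genes of the general transcription factors and Mediator 13 fell (28.9%) and 5 rose, including GTF2I (-0.71), the Mediator subunits MED17 (-0.56) and MED7 (-0.51), and GTF2B (0.47). Of 9 genes of other C2H2 families 2 fell, ZFP64 (-0.50) and ZBTB33 (-0.29), and 1 rose. The gene that rose was ZFP36 (1.31), whose protein binds RNA through CCCH rather than C2H2 fingers. These shares lie nearer the 20.8% of all genes than the 41.7% of the ZNF-named genes, whereas the 38.1% of the KRAB partners lies nearer the latter. They are not matched for level. On shunt baseline arrays the KRAB partners averaged 8.06 and the 41 and 45 genes 7.89 and 8.18, all in the brightest band. There 33.3% of ZNF-named genes and 28.3% of other genes fell. The 9 genes averaged 6.48, in a band where 66.7% and 15.2% fell. The differences between lists were not tested.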

How the data were processed

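RNA from 33 right ventricular biopsies was measured on 1 array each. The deposited values are log2 probe set signals made with RMA, per the submitters' processing notes. RMA's version is not given in the sources used here, nor is which arrays were normalized together. Quantile steps of RMA force arrays to a like distribution, so changes are relative to the whole array. The values were used as deposited, without a filter.

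Of 24123 probe sets, 124 controls were left out and 23999 tested in R 4.3.3 with limma 3.58.1 (lmFit, eBayes). The model had the pig as a block and, in each arm, a term for the 120 min and the last biopsy, which left 18 residual degrees of freedom. Tests were two-sided with Benjamini-Hochberg over all probe sets and a threshold of 0.05. The baseline comparison used the 11 baseline arrays alone. The block rests on the labels, which give 3 biopsies of each pig. With group means removed, the median correlation was 0.395 between biopsies of a pig and -0.0524 between pigs, and for 28 of the 33 arrays the best match came from the same pig. Errors of changes are SE, of levels SD. The number of arrays limits the precision.

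A single symbol was given to 10069 probe sets. Named at 120 min are the largest falls and rises that passed and went the same way in every pig (up to 12 of each, or all that passed where fewer than 5 did so). Named in the later and whole-course changes are the largest 8 of each sign that passed, or the 5 smallest p. The text names further members after their values were seen. Members and lists were chosen with earlier results of these data known. On simulated data the fit recovered, at 120 min, 89% of changes of 0.5 and 98% of changes of 1. For the control arm's whole course these were 57% and 97%, and for the shunt arm's 69% and 99%. The simulation changed 100 of the 23999 probe sets at each size, in independent normal noise. In the data 17.4% of probe sets fell and 11.6% rose at 120 min, so these rates hold for the simulated setting and not for the data.

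Alternatives were centring, quantile normalization of the deposited values, no block, pig as a random block (statmod 1.5.0), an intensity trend, leaving out the dimmest 30% of probe sets, array weights, the mean of a gene's probe sets, 1 probe set per gene, only the arrays compared, each array set alone and each pig left out. Leaving out array set B was added after the data were seen. No sequences are shown, since none was used here.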

Additional observations from a re-analysis of the deposited data

Results flagged for a closer look

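Single pigs were compared with the rest of their arm for the genes named, over 96 groups of 5 or 6 values. In 6 groups 1 pig stood apart from the others, and chance gives such a pig in about 1 of 20 groups. For ZNF688 the change at 120 min was -1.494 in control pig 1, against -0.58 to -0.30 in the other control pigs. For ZNF618 it was -1.408 in shunt pig 4, against -0.65 to -0.34 in the other shunt pigs. ZNF697 changed by -0.6596 from 120 min to the last biopsy in control pig 5, where the other control pigs had 0.56 to 0.70, and over the whole course by 0.5215 in that pig, against 1.12 to 1.28. ZNF322 changed by -1.754 over the whole course in shunt pig 3, against -0.92 to -0.52. The baseline level of ZNF397 was 7.145 in control pig 3, against 6.85 to 6.92 in the other control pigs.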

How the results depend on the processing

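At 120 min 23 zinc finger genes were called. The count stayed within 1.5 times of this except with array set B alone (2 genes, 1 lower and 1 higher, from 2 pigs) and array set C alone (11, 9 lower and 2 higher), where fewer pigs were fitted. It ranged from 19 to 25 with single pigs left out. All 23 kept their direction in all 25 alternatives, and ZNF382 and ZNF697 were called in each of them. The median change of the 48 genes ranged from -0.13 to -0.10 with single pigs left out. Without the replicate block, which drops the pairing by pig, 20 genes were called at 120 min and 19 over the shunt arm's whole course. That fit called 5 over the control arm's whole course in place of 11, and no other count of called genes moved by over 1.5 times. For the shunt arm's whole course 24 genes were called, 6 with array set B alone and 21 to 25 with single pigs left out. For the control arm's the range was 4 to 12. For the later change in the shunt arm it was 0 to 1, and 1 with array weights. In the later change in the control arm and in every difference between arms, 0 genes were called in all alternatives. Of single values, 1464 kept their side of the threshold, 65 lost the call and 2 gained it. With the mean of its probe sets, ZNF566 changed by -0.042 in the shunt arm's whole course in place of 0.27. The cause was not tested beyond the probe sets' own values.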
